A study of Mus musculus with 2 samples.

Results

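This set holds 10 genes of CD8 T cells and other killer lymphocytes, measured in CD4+ T cells. They are the CD8 coreceptor genes *Cd8a* and *Cd8b1*, the NK receptor genes *Klrd1* and *Klrk1*, the cytotoxic granule genes *Nkg7*, *Prf1*, *Gzma*, *Gzmb* and *Gzmk*, and the lineage regulator *Runx3*. The 10 genes, out of 19938 genes represented on the array, were chosen on their roles and with their signals in these same 2 arrays already known, so the differences below describe them and are not tested. Each gene has exactly 1 probe set here.

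The cells came from NOD mice that carry the transgenic TCR of a β cell–reactive clone (BDC mice, given as BDC2.4 in the sample labels), aged 8 weeks. Mice received nondepleting (ND) αCD4 (clone YTS177, a rat IgG2a) or a rat IgG2a isotype control Ab (clone 2A3), and were examined 48 hours later. The label of the isotype control array gives a dose of 1 mg (the labels give age and agent under each other's headings). Live CD3+CD4+ T cells were sorted from the pancreatic lymph nodes (PLN) of pooled mice. CD4 is thus both a sorting marker and the target of ND αCD4, and the paper describes internalization of CD4 after Ab treatment. Whether the gate took the same kinds of cells in both conditions was not tested. Each condition has 1 array, so no difference has a replicate check and no p value is given. Signals are on the log2 scale as deposited, and a log2 ratio is the ND αCD4 signal less the isotype control signal. In such a pool, a different share of cells that express a gene and a different amount of its RNA per cell cannot be told apart.

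CD8 is the coreceptor of T cells that recognize peptide on MHC class I, as CD4 is for MHC class II. Mature T cells usually keep a single coreceptor, and Runx3 represses *Cd4* and supports *Cd8a* in the CD8 lineage, while ThPOK (*Zbtb7b*) does the reverse in the CD4 lineage. Killer cells store perforin and granzymes in secretory granules. On contact with a target, perforin lets granzymes into that cell, where they cleave proteins and start cell death. NK receptors such as NKG2D and CD94/NKG2 are also found on activated CD8 T cells, and a minority of CD4+ T cells can express granule genes.

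A gene was called detected when its signal exceeded background in at least 1 array. Background was set from olfactory and vomeronasal receptor genes and lay at 7.64 (isotype control) and 7.56 (ND αCD4) on the log2 scale. The sorted cells carried the T cell genes the gate selects. *Cd3e* measured 13.76 with the isotype control Ab and 13.78 after ND αCD4, and *Cd3g* had 13.76 and 13.74. *Cd4* had 13.38 and 13.48, a log2 ratio of 0.09.

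Most of the 10 genes had a higher signal after ND αCD4, and the granzymes *Gzmb* and *Gzmk* had a lower one. Of the 10, 8 exceeded background in both arrays, *Klrd1* did so only after ND αCD4, and *Klrk1* did so in neither. By their measured values, 3 were at least 1.5-fold higher (*Klrd1*, *Cd8a* and *Prf1*) and 0 were at least 1.5-fold lower. *Klrd1* passes only through the array in which it was high, and with its isotype control signal set to background 2 genes remain at least 1.5-fold higher. Among the 13222 detected genes, the higher share by the same limit was 0.212% and the lower share 1.01%, and 46.7% lay above 0. Across the 10 genes, 8 log2 ratios were above 0, with a median of 0.44 over all 10, whereas the median of all detected genes was -0.01. Since the genes were picked with these values known, nothing is read from that contrast. None of the 10 reached 2-fold.

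**Figure D1:**
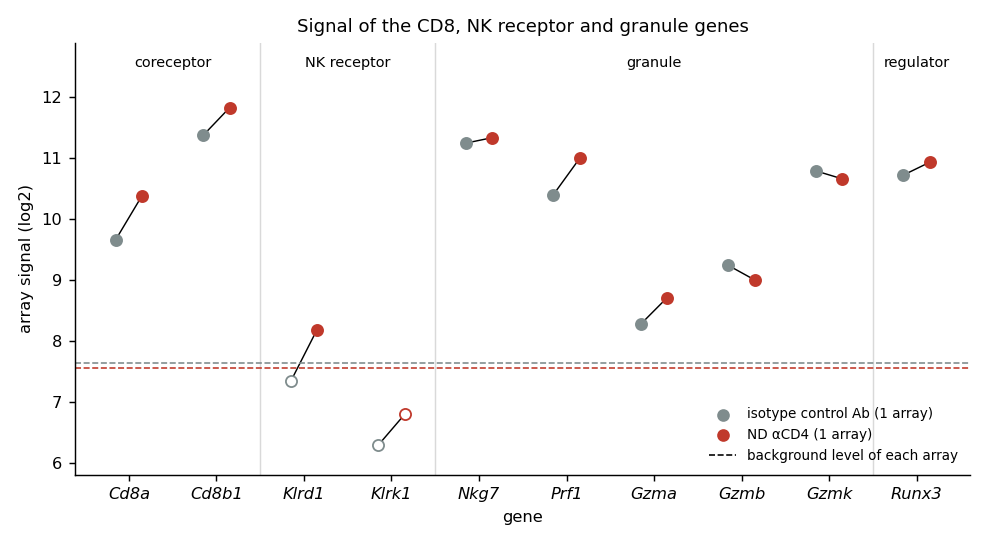
Array signal (log2) of the 10 genes with the isotype control Ab (gray) and after ND αCD4 (red), from single arrays, where lines connect the values of each gene, open circles for signals not above background and dashed lines at the background level of each array. *Cd8a* goes from 9.67 to 10.39 and *Gzmb* from 9.24 to 9.001, and heights cannot be set against each other between genes, whose probes differ.

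The RNA signals of both CD8 chains were higher after ND αCD4, and protein was not measured here. CD8 is either a homodimer of α chains or a heterodimer of an α and a β chain. *Cd8a*, which encodes the α chain that binds MHC class I and carries the Lck-binding tail, measured 9.67 with the isotype control Ab and 10.39 after ND αCD4. This is 1.65-fold higher (log2 ratio 0.72), and 15 of the 13222 detected genes had a higher one. *Cd8b1*, which encodes the β chain, had 11.38 and 11.83, 1.37-fold higher (log2 ratio 0.45), which was exceeded by 63 detected genes. Both genes thus went the same way, with log2 ratios 0.27 apart. For scale, the SD of the log2 ratio between probe sets of the same gene was 0.09 (550 genes with exactly 2 detected probe sets). That is the SD of 1 log2 ratio, and the gap between 2 of them spreads more widely. It covers probe differences and not differences between mice. *Cd4* itself, at 0.09, lay within the range that held most genes of its signal level, 13 to 14, where the 5th and 95th percentiles of the log2 ratio were -0.15 and 0.13.

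Of the NK receptor genes, *Klrd1* exceeded background only after ND αCD4 and *Klrk1* in neither array. *Klrd1* encodes CD94, which pairs with NKG2 proteins to recognize the nonclassical MHC molecule Qa-1. Its signal was 7.34 with the isotype control Ab, under the background of 7.64, and 8.19 after ND αCD4, so it was at least 1.46-fold higher, and its measured log2 ratio of 0.85 is not taken as its size. *Klrk1* encodes NKG2D, a receptor for stress-induced ligands, and had 6.29 and 6.79, not above background in either array, so no fold is given. The NKG2 partners of CD94, *Klrc1*, *Klrc2* and *Klrc3*, were also not above background in either array (at most 6.23). The signalling adaptors of NKG2D were detected and differed little. *Hcst*, which encodes DAP10, had 9.998 and 9.91 (log2 ratio -0.09), and *Tyrobp*, which encodes DAP12, had 8.28 and 8.24 (log2 ratio -0.04). *H60b*, an NKG2D ligand, had 8.61 and 8.69 (log2 ratio 0.08). Of 7 measured partners and ligands, 3 were detected, 0 reached 1.5-fold in either direction, and the median of the detected ones was -0.04.

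Among 23 other NK-type receptor genes measured, 10 were detected, 5 with a log2 ratio above 0 and 5 below, with a median of 0.02 and 0 past 1.5-fold. The detected ones farthest from 0 went both ways. *Slamf7*, an activating receptor of NK and activated T cells, had 10.05 and 9.64 (log2 ratio -0.41), and *Cd160*, a receptor of killer cells and intraepithelial T cells, had 7.95 and 7.71 (-0.24). The lectin-like receptor genes *Klrb1f* and *Klrb1b* had log2 ratios of 0.28 and 0.22.

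The granule genes did not go one way. *Prf1*, which encodes the pore-forming protein perforin, measured 10.40 with the isotype control Ab and 11.00 after ND αCD4, 1.51-fold higher, with 26 detected genes above its log2 ratio of 0.60. *Gzma*, which encodes granzyme A, a protease that cuts after basic residues, had 8.28 and 8.71, 1.35-fold higher, a log2 ratio of 0.43. *Nkg7*, which encodes a granule membrane protein needed for granule release, had 11.25 and 11.34, a log2 ratio of 0.09 that 20.8% of detected genes exceeded. *Gzmb*, which encodes granzyme B, a protease that cuts after aspartate and activates caspases, had 9.24 and 9.001, 1.18-fold lower, a log2 ratio of -0.24. *Gzmk*, which encodes granzyme K, had 10.79 and 10.66, 1.09-fold lower, a log2 ratio of -0.13. *Prf1* and *Gzmb*, whose products act together on a target cell, thus had log2 ratios 0.83 apart. *Gzma* and *Gzmk* lie next to each other on chromosome 13, and their log2 ratios were 0.56 apart.

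Set against the spread of genes of like signal, the 10 genes fell into separate positions. *Cd8a* and *Prf1*, with mean signals of 10 to 11, lay above the 95th percentile of 0.20 for the 2822 detected genes in that range. *Cd8b1* lay above the 95th percentile of 0.22 for signals of 11 to 12, and *Gzma* above that of 0.20 for signals of 8 to 9. *Runx3* lay just above its own, also 0.20. *Nkg7*, *Gzmb* and *Gzmk* lay between the 5th and 95th percentiles. This spread is over genes and stands in for no replicate.

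**Figure D2:**
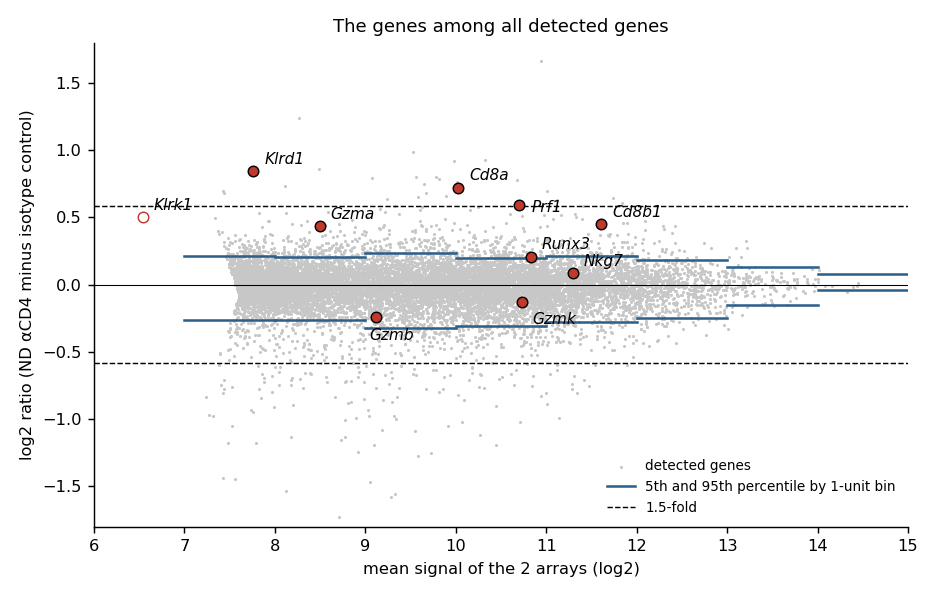
Log2 ratio of ND αCD4 to isotype control for every detected gene (gray points) against the mean signal of the 2 arrays (log2), with the 5th and 95th percentiles in bins of 1 unit as blue bars and 1.5-fold as dashed lines. The 10 genes are named, *Cd8a* at 0.72 and *Gzmb* at -0.24 among them, and the open circle marks *Klrk1*, not above background in either array.

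The other genes of granules and death ligands had log2 ratios nearer 0 than *Prf1* and *Gzma*. Of 17 measured, 11 were detected, 3 with a log2 ratio above 0 and 8 below, with a median of -0.04 and 0 past 1.5-fold. The highest was *Ctsw*, which encodes cathepsin W, a protease of killer lymphocytes, with 9.95 and 10.20 (log2 ratio 0.25). *Serpinb9*, which encodes an inhibitor of granzyme B, had 9.20 and 8.99 (-0.21). *Calr*, a chaperone also found in granules, was at -0.13 and *Serpinb6b*, another protease inhibitor, at -0.08. *Gzmc*, *Gzmd*, *Gzme*, *Gzmf*, *Gzmg* and *Gzmn*, the granzyme genes that lie beside *Gzmb*, were not above background in either array (at most 6.73).

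All 11 genes of granule exocytosis were detected, 5 with a log2 ratio above 0 and 6 below, with a median of -0.0028. *Sytl3*, a synaptotagmin-like protein, had the highest at 0.22, followed by *Lyst*, the lysosomal trafficking regulator, at 0.21. *Stx11*, a syntaxin of granule fusion, was at -0.17, and *Sytl1* was at 0.15. None reached 1.5-fold.

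The promoters of 4 granule genes are shown as reference sequence, and no link between their letters and the log2 ratios was tested. RefSeq sequences (GRCm38.p6; 250 bases before to 50 after the start site) were given for 8 of the 10 genes. Below are *Prf1* (chr10:61297586-61297885, plus strand), *Gzma* (chr13:113100932-113101231, minus strand), *Gzmb* (chr14:56262285-56262584, minus strand) and *Gzmk* (chr13:113180916-113181215, minus strand). Each is written 5′ to 3′ along the gene. Capitals mark the RUNX core ACCACA, the T-box motif TCACACC or the AP-1 motif TGACTCA on either strand, none of which overlap.
Prf1: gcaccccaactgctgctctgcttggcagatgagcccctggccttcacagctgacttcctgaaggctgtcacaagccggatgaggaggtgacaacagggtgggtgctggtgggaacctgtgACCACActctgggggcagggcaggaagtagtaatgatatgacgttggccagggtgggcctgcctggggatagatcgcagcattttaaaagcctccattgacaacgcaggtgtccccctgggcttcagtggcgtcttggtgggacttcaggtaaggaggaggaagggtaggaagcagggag
Gzma: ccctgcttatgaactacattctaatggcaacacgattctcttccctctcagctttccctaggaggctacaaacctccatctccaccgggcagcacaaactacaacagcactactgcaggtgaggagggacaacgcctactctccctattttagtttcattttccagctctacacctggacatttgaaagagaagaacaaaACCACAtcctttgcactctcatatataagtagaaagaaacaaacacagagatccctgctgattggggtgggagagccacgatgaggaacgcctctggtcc
Gzmb: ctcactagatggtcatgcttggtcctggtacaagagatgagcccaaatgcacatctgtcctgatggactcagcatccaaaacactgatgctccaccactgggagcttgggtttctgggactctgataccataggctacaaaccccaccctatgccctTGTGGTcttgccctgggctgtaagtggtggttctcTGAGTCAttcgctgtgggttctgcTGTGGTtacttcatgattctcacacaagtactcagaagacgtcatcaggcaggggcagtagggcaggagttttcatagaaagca
Gzmk: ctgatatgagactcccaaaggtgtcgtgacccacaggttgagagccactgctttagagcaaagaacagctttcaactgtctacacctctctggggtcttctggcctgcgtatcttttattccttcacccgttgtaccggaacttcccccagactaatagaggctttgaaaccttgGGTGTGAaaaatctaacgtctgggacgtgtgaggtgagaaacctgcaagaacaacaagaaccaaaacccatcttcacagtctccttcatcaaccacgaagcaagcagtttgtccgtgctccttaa

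The RUNX core was present in *Prf1*, *Gzma* and *Gzmb*. It began 130 bases before the start of *Prf1* and 50 before that of *Gzma*, and *Gzmb* held it at 2 places, 93 and 34 bases before the start. *Gzmb* also held the AP-1 motif 58 bases before its start, between the RUNX cores, and *Gzmk* held the T-box motif 75 bases before its start. Over the 9 promoter windows of the 8 genes, 6 windows of 6 genes held the RUNX core (*Klrk1*, *Nkg7*, *Prf1*, *Gzma*, *Gzmb* and 1 of the windows of *Runx3*). It occurred in 16.8% of all 32851 windows of the same length and in 13.1% of those of detected genes. The T-box motif was found in *Nkg7* and *Gzmk* and in 3.98% of all windows, and the AP-1 motif in *Klrk1* and *Gzmb* and in 5.20%. *Cd8a* held none of these letters in its window. A match is a run of letters and not evidence of binding.

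*Runx3*, which encodes a RUNX factor that acts in the choice of the CD8 lineage and in killer cell programs, measured 10.73 with the isotype control Ab and 10.94 after ND αCD4. This is 1.16-fold higher, a log2 ratio of 0.21 that 5.26% of detected genes exceeded. The gene has a distal and a proximal promoter, and its single probe set was not used to tell their transcripts apart. *Runx1*, its relative, had 11.69 and 11.80 (0.11), and *Cbfb*, the shared partner of RUNX proteins, had 11.57 and 11.52 (-0.05).

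Other regulators of CD8 and killer lineages stayed under 1.5-fold, and the T-box factors had log2 ratios below 0. *Eomes* and *Tbx21* (which encodes T-bet) are known activators of *Prf1* and *Gzmb* in CD8 T cells. Their part in the signals of the 10 genes was not tested. *Eomes* measured 11.72 with the isotype control Ab and 11.41 after ND αCD4 (log2 ratio -0.31), and *Tbx21* had 9.14 and 8.87 (-0.27). *Prdm1*, which encodes Blimp-1, had 7.91 and 8.151 (0.24), and *Patz1*, a zinc finger protein that binds a Cd8 enhancer, had 10.35 and 10.51 (0.15). Of 13 such regulators measured, 12 were detected, 9 with a log2 ratio above 0 and 3 below, with a median of 0.06 and 0 past 1.5-fold.

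Genes of the CD4 side were measured in cells sorted on CD4 in both conditions, so nothing on lineage is read from them. Of 7 measured, 6 had a log2 ratio above 0 and 1 below, with a median of 0.05 and 0 past 1.5-fold. *Zbtb7b*, which encodes ThPOK, had 11.08 and 11.23 (log2 ratio 0.14), *Cd40lg*, the ligand through which CD4+ T cells help other cells, had 10.82 and 11.04 (0.22), and *Gata3* was at 0.05.

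**Figure D3:**
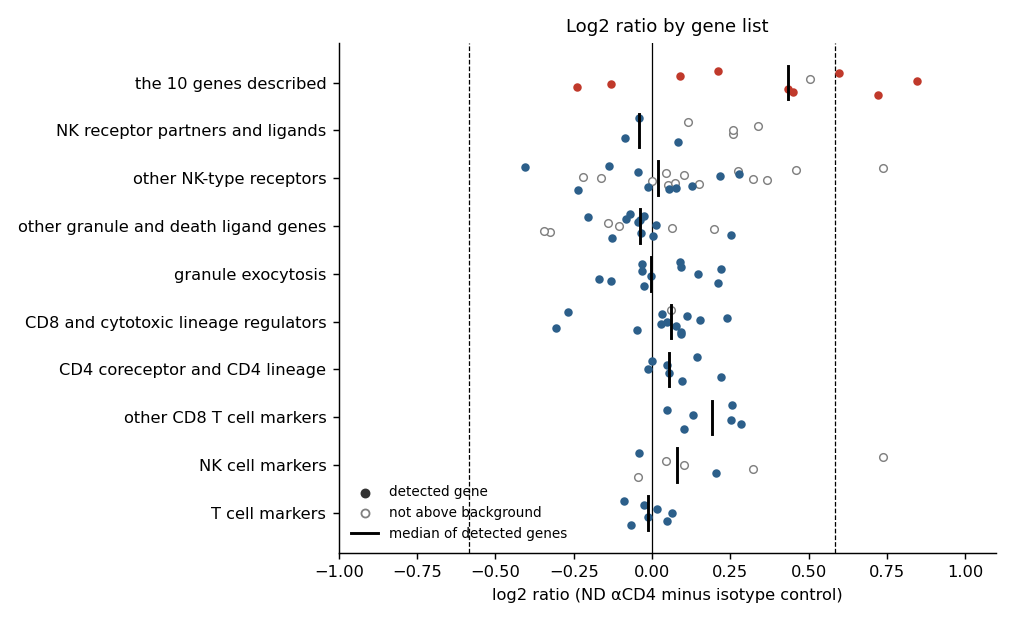
Log2 ratio of ND αCD4 to isotype control for every measured gene by list, with filled points for detected genes, open points for genes not above background in either array, a bar at the median of the detected genes and dashed lines at 1.5-fold. The 9 detected of the 10 genes have a median of 0.43 and spread from -0.24 to 0.85, and the list of other granule genes has its median at -0.04, and the height of a point within its row has no meaning.

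Several of the 10 genes are neighbors on their chromosomes, which the choice of genes did not use. *Cd8b1* and *Cd8a* lie side by side on chromosome 6, and both were higher, whereas the 3 other detected genes within 100 kb of *Cd8a* had log2 ratios between -0.05 and 0.11. *Klrd1* and *Klrk1* are neighbors in the NK receptor gene cluster, also on chromosome 6. Of 21 genes of that cluster with a probe set of their own, 3 were detected. Leaving out *Klrk1*, 14 of the 17 others had a log2 ratio above 0, where the share over all genes not above background in either array was 43.4%. These 17 signals hold no level, so nothing is read from their signs, and since the families are closely related in sequence, which of them a probe set reports is uncertain. In the *Gzmb* cluster, *Gzmb* was the only detected gene of 7, and 2 of the other 6 had a log2 ratio above 0. Over all 10 genes, 36 other genes lay within 100 kb, of which 17 were detected, with a median log2 ratio of 0.01 and 0 past 1.5-fold.

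**Figure D4:**
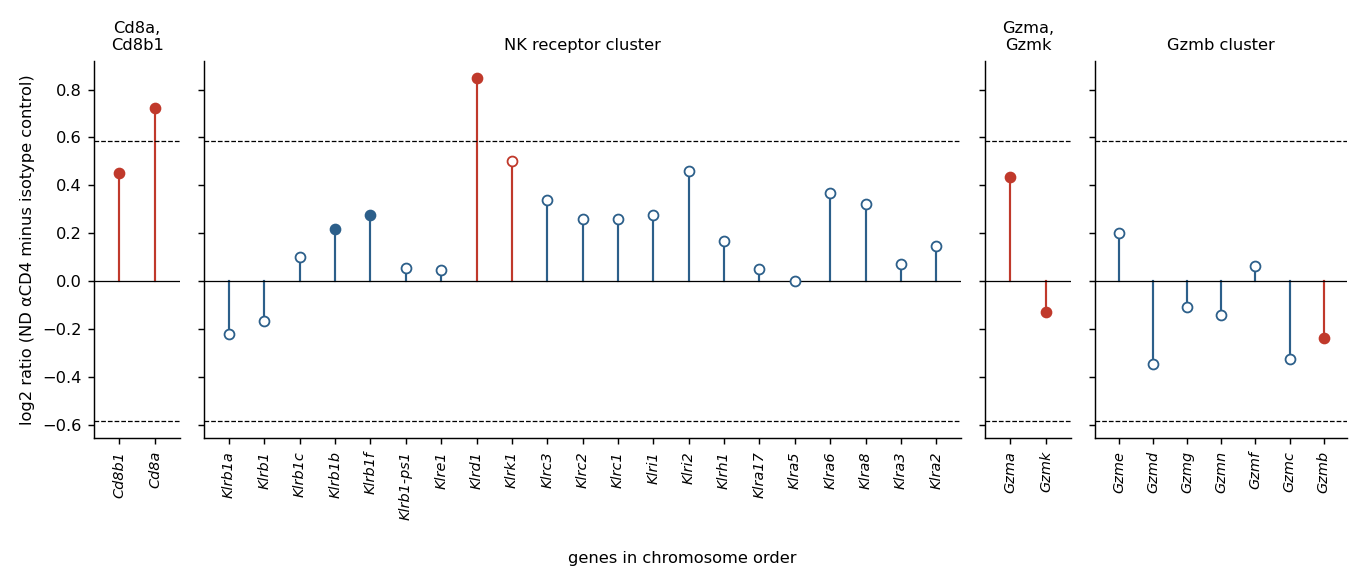
Log2 ratio of ND αCD4 to isotype control for genes in chromosome order in the clusters that hold several killer cell genes, red for the 10 genes described and blue for their neighbors, filled where detected and open where not above background in either array, with dashed lines at 1.5-fold. *Cd8a* (0.72) and *Cd8b1* (0.45) stand on the same side of 0, and *Gzma* (0.43) and *Gzmk* (-0.13) on opposite sides.

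Markers of other cells were measured beside these genes. Further CD8 T cell markers moved in the direction of *Cd8a* but by less. All 6 measured were detected and had a log2 ratio above 0, where the share over all detected genes was 46.7%. Their median was 0.19, with 0 past 1.5-fold. Their summed linear signal was 15349.7 with the isotype control Ab and 17331.2 after ND αCD4. Such sums, here and below, weigh bright probe sets most and do not measure how many cells of a kind were present. Among the 6 markers, the chemokine gene *Ccl5* had 11.81 and 12.09 (log2 ratio 0.28) and *Dapl1* had 13.24 and 13.37 (0.13). *Ccl5*, *Xcl1* and *Ctsw* lay above the 95th percentiles for genes of like signal and *Dapl1* just above its own. *Car2*, at 0.10, and *Itgae*, at 0.05, lay under theirs. The part of CD8 T cells in the signals of the 10 genes was not tested. Of 7 measured NK cell markers, 2 were detected, *Tyrobp* in both arrays and *Fcer1g* only after ND αCD4. Summed over all 7, including the 5 not above background, the linear signal was 853.7 with the isotype control Ab and 945.3 after ND αCD4. The NK receptor genes among them, *Ncr1*, *Klrb1c*, *Klra8* and *Klre1*, were not above background in either array. Cell division genes went the other way: of 6 measured, 5 were above background in both arrays with log2 ratios from -1.58 (*Rrm2*) to -1.24 (*Cdk1*). *Birc5* exceeded background only with the isotype control Ab and was at least 1.47-fold lower after ND αCD4. Their summed linear signal over all 6 after ND αCD4 was 0.387 times that with the isotype control Ab. The part of dividing cells in the signals of the 10 genes was not tested. Among markers of double-positive thymocytes, which carry both coreceptors, only *Dntt* passed 1.5-fold. Of 6 measured, 3 were detected, all with a log2 ratio above 0 and a median of 0.23, and over all 6 the summed linear signal was 1419.7 with the isotype control Ab and 1845 after ND αCD4. *Dntt*, which encodes the DNA polymerase that adds bases at receptor gene joins, had 7.65 and 8.88 (log2 ratio 1.24). *Cd1d1* and *Ptcra*, at 0.23 and 0.12, lay under the 95th percentiles for genes of like signal, 0.24 and 0.20. The recombination genes *Rag1* and *Rag2* and the thymocyte gene *Arpp21* were not above background in either array. The part of such cells in the signals of *Cd8a* and *Cd8b1* was not tested. The single measured red blood cell gene, *Alas2*, exceeded background only after ND αCD4 (7.46 and 7.74). In 10 marker lists of other cells (NK, innate-like T and γδ T cells, B cells, plasma cells, macrophages, dendritic cells, neutrophils, stroma and pancreas), medians of detected genes lay between -0.08 and 0.12, with 0 genes past 1.5-fold. Some of these markers had signals well above background. All 7 measured B cell markers were detected, the brightest being *Cd79b* (10.34 and 10.44). All 5 of stroma and endothelium were too, the brightest being *Pecam1* (11.87 and 11.97).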

How the data were processed

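Each of the 2 conditions was measured on a single array of sorted T cells. The authors deposited 1 log2 signal per probe set, made with Affymetrix Expression Console according to the submitters' processing notes. Its version and its background correction, normalization and summary steps are not given in the sources used. The study's methods name a later version of the array than the probe set identifiers belong to. The log2 scale was inferred from the values, which span 2.52 to 14.7. Of 35557 probe sets, the 21789 with a single gene symbol in the platform annotation were used, giving 19938 genes, and each gene took its probe set of highest mean.

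Background was the 95th percentile of signals from 1210 probe sets for olfactory and vomeronasal receptors in each array. The size rule was 1.5-fold. A gene under background in 1 array was given a bound against that array's background. No test was run, and precision is limited by the number of arrays. The genes, 6 pathway lists and 15 marker lists were chosen with earlier results of these data known. Named are all 10 genes, up to 4 detected genes per pathway list with the log2 ratio farthest from 0, and 1 or 2 bright markers for lists that bear on the results. *Runx1*, *Cbfb*, *Dntt*, *Ptcra*, *Rrm2*, *Cdk1*, *Birc5*, *Fasl*, *Xcl1*, *Car2*, *Itgae*, *Adamts14*, *Pald1* and genes not above background were named after their values were seen. The planned protein comparison was not run.

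Alternatives were centring on the median, quantile normalization, lowess (fraction 0.3, 3 iterations), averaging probe sets, signals floored at background, dropping the filter, requiring detection in both arrays, background at the 99th percentile and a 2-fold rule. The size rule was run on simulated data with planted changes of 2-fold in genes well above background. That run does not bear on changes near 1.5-fold or on signals near background. Scripts ran in Python 3.11.15 with pandas 2.3.3, numpy 2.4.6, matplotlib 3.10.9 and statsmodels 0.14.6.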

Additional observations from a re-analysis of the deposited data

How the results depend on the processing

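Under the alternatives, the log2 ratios of the 10 genes, their median and counts, and the medians and counts of the 6 pathway lists moved by less than 0.09 (the SD of the log2 ratio between probe sets of a gene) or, for counts, by no more than 1.5 times, apart from the values given here. Averaging probe sets could change nothing, since each of these genes has 1 probe set, and a 2-fold size rule cannot change a median. Floored at background, *Klrd1* had a log2 ratio of 0.54, by construction, which takes it under 1.5-fold and leaves 2 of the 10 genes at least 1.5-fold higher. With detection in both arrays or background at the 99th percentile, *Klrd1* drops out, the median of the detected members is 0.32 and 2 are higher. At a 2-fold size rule 0 are higher. With no filter, the median of the NK receptor partners and ligands is 0.12, and 1 of the other NK-type receptors is at least 1.5-fold higher (*Ncr1*, not above background in either array). *Prf1* stood close to the size rule, with log2 ratios from 0.60 to 0.63 over the 4 scalings against a limit of 0.58, and *Cd8a* ran from 0.72 to 0.75. No paired analysis was possible because each condition has 1 array. Signals near background limit *Klrd1* and *Klrk1*.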

Other observations

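Within 100 kb of the 10 genes, the detected neighbor with the log2 ratio farthest from 0 was *Adamts14*, which encodes a procollagen-processing protease and lies near *Prf1*. It measured 8.77 with the isotype control Ab and 9.28 after ND αCD4, a log2 ratio of 0.51, while *Pald1*, the other gene near *Prf1*, was at -0.08. *Cxcr6*, which encodes a chemokine receptor of innate-like and tissue T cells, had 8.92 and 9.24 (log2 ratio 0.32), and *Zbtb16*, the transcription factor of innate-like T cells, had 8.03 and 7.95 (-0.08). *Xcl1*, a chemokine gene of CD8 T cells and NK cells, had 8.47 and 8.73 (0.26). *Fasl*, which encodes the death ligand of killer cells, had 8.44 and 8.41 (-0.03).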
